A study of Caenorhabditis elegans with 4 samples.

Results

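The Hox gene neighbourhood of Caenorhabditis elegans is a 550 kb stretch of chromosome III, from 7400001 to 7950000 on the WormBase WS220 build, which holds the Hox genes lin-39, ceh-13, mab-5 and egl-5. Every peak whose centre lay in this stretch, called the Hox window here, was taken from 3 deposited lists of binding peaks for the Hox protein LIN-39. The members were chosen by position, with earlier results of these data known. Replicate 1 supplied 146 members of its 30000 peaks and replicate 2 supplied 152 of its 30000. A further member, 1 of 141 peaks, came from the list deposited for the series as a whole, called the series-level list here.

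The peaks came from chromatin immunoprecipitation with sequencing (ChIP-seq) of L4 hermaphrodites, larvae of the final stage, raised at 20 °C and crosslinked with 2% formaldehyde. The 2 ChIP libraries, replicates 1 and 2, were made with anti-GFP antibody, and 2 input libraries of the same numbers held chromatin set aside before the antibody. All 4 came from strain OP18, which has the unc-119(ed3) III allele and the transgene wgIs18. The transgene supplies unc-119(+) together with a lin-39::TY1::EGFP::3xFLAG fusion. It was introduced by bombardment and is carried in addition to the lin-39 gene on chromosome III. A peak list cannot tell copies of the same sequence apart, and the sources used here do not give the extent or copy number of the transgene. No untagged strain was analysed here, and whole worms were used, so the tissues in which LIN-39 occupied a site are not resolved. The labels number the replicates but do not say whether they were separate cultures.

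Hox genes encode homeodomain transcription factors that give cells their identity along the body axis, and in worms, as in other animals, several of them lie near each other. In C. elegans, ceh-13 acts in anterior patterning, lin-39 patterns the middle of the body, including the vulval precursor cells and the ventral nerve cord, mab-5 acts in the posterior body and in neuroblast migration, and egl-5 acts in the tail. Hox proteins can regulate Hox genes, their own included, and a role for LIN-39 in lin-39 expression is known from genetic work. A map of LIN-39 sites in the Hox window therefore bears on the question of where this protein sits around the genes of its own family.

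In the RefSeq gene table the 4 genes lie in the order lin-39, ceh-13, mab-5, egl-5. No other protein-coding gene stands between lin-39 and ceh-13, where the neighbour before lin-39 is lig-4, a DNA ligase, and the neighbour after ceh-13 is lgc-12, a ligand-gated channel family member. Between ceh-13 and mab-5 the table lists 37 protein-coding genes, and between mab-5 and egl-5 it lists 1, cyk-7. That table is for the WBcel235 build and the peaks are on WS220, so the peaks below are given by position and were not assigned to genes. No genome sequence was used, and the sequences under the peaks were not analysed here.

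A single site in the window stood near the top of every list. The series-level peak lay at III 7854382 to 7854885 and was number 10 of the 141, with the highest score of that list, 1.61, which 21 peaks share. In replicate 1 the matching peak, at 7854395 to 7854890, was number 33 with a score of 0.582. In replicate 2 it was number 9, at 7854370 to 7854859, with a score of 1.84, the highest in that list and shared by 35 peaks. The number in a peak's name was read as its rank in the list, with 1 the strongest, a reading that no header states. The authors' scores are on a log scale and follow minus log10 of an estimated false discovery rate. By that reading the estimate at this site was 0.262 for replicate 1 and 0.0145 for replicate 2, while the series-level value was 0.0244. The replicate 2 and series-level values are those of all 35 and all 21 tied peaks, so they are not particular to this site.

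The position of this site was closely repeated between the replicates, whose peak centres lay 28 bp apart. The centre of the series-level peak lay 9 bp from that of replicate 1 and 19 bp from that of replicate 2. That list was deposited for the same series and may draw on the same libraries, so it is not a separate repeat. On chromosome III the next series-level peaks were far off, number 126 at 6987931 to 6988434, with its centre 866 kb to the left, and number 30 at 8043659 to 8044162, 189 kb to the right. Among the members, 1 of 146 in replicate 1 and 1 of 152 in replicate 2 overlapped a series-level peak, against 0.633% and 0.677% of all peaks in replicates 1 and 2.

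**Figure D1:**
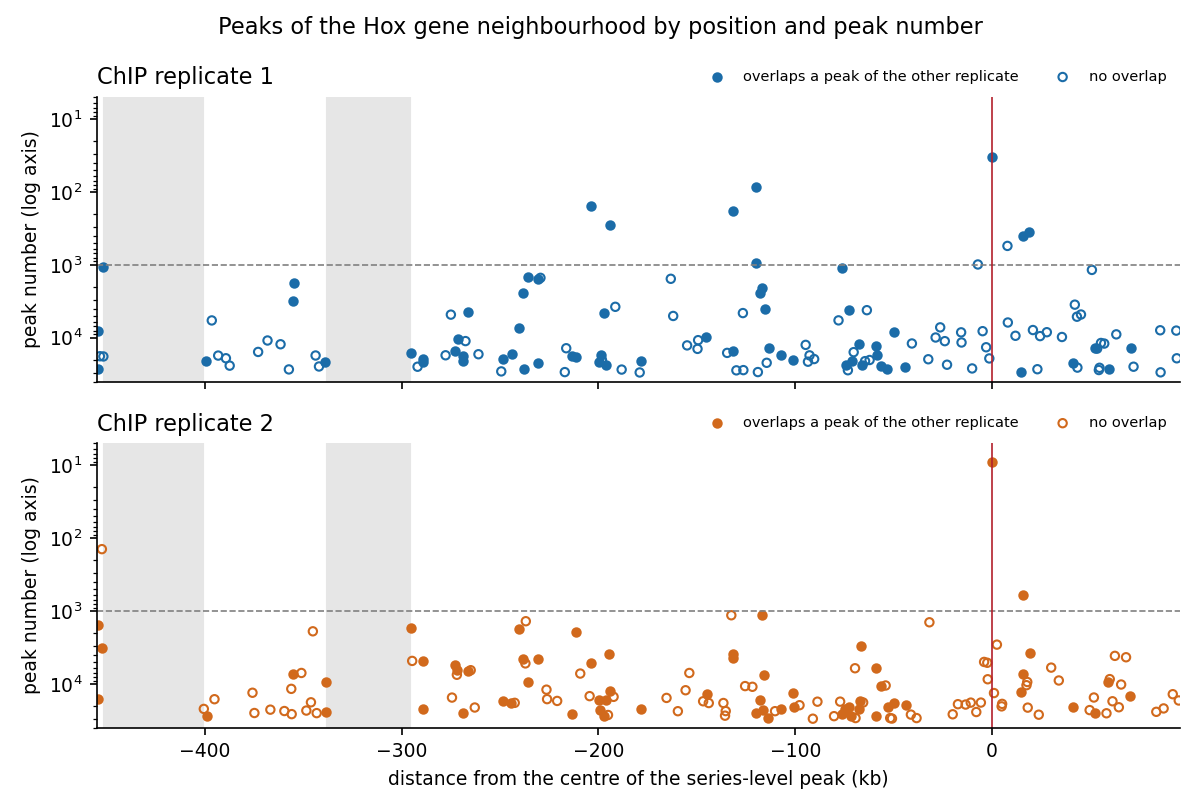
Each point is a peak of the Hox window in replicate 1 (upper panel) or replicate 2 (lower panel). The horizontal axis gives the distance of the peak's centre from that of the series-level peak (red line) in kb, and the vertical axis the peak number on a log axis with low numbers at the top. Filled points overlap a peak of the other replicate, the dashed line marks number 1000, and grey bands mark the gaps of 51.0 kb and 42.9 kb that hold no peak centre in either replicate. The point on the red line is number 33 above and number 9 below.

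The other high-ranked members differed between the replicates. Replicate 1 had 10 peaks numbered 1000 or lower in the window (6.85% of its 146 members, 95% exact interval 3.33 to 12.2) and replicate 2 had 3 (1.97% of 152, 0.409 to 5.66), where by construction 3.33% of all peaks of each list have such numbers. Beside number 33, replicate 1 had number 85 at 7734233 to 7734728, with a score of 0.111. The replicate 2 peak with its centre 4 bp away was number 25130. The position was therefore present in both lists, at opposite ends of the order.

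The next peaks of replicate 1 also had counterparts of much higher number in replicate 2. Number 155 at 7650685 to 7651180 had its replicate 2 counterpart 48 bp away at number 5116, and number 185 at 7722779 to 7723274 had its own 12 bp away at number 3902. Number 281 at 7660228 to 7660723 matched number 12605 of replicate 2 at a distance of 6 bp and overlapped number 3878, 206 bp away. These 3 replicate 1 peaks had scores of -0.03 to -0.05, where a score below 0 means an estimate above 1. They cannot be told from background by score. Of the 10 peaks, number 551 at 7862210 to 7862705 and number 990 at 7847194 to 7847689 overlapped no replicate 2 peak.

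In replicate 2, number 142 at 7402144 to 7402633 ranked second in the window, with a score of 0.348 and an estimate of 0.449. It overlapped no replicate 1 peak, and the nearest centre in replicate 1, 540 bp away, was that of number 1068. It did overlap number 3222 of replicate 2, at 7402360 to 7402849, which in turn overlapped number 1068. The remaining replicate 2 peak numbered 1000 or lower was number 607 at 7870153 to 7870642. That peak overlapped number 403 of replicate 1 at 7870314 to 7870809. With the site at 7854382, this made 2 positions in the window where a peak numbered 1000 or lower in one replicate overlapped such a peak in the other. The other 7 windows described below had 0 to 5 replicate 1 peaks of this kind, with a median of 1. By mutual nearest centres only the site at 7854382 counted, since a replicate 2 peak numbered 7201 lay closer to number 403.

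Several of these positions stood close to the strongest site. Within 25 kb of its centre, the site itself included, replicate 1 had 19 peaks, 5 of them numbered 1000 or lower. Replicate 2 had 22, also with the site included, of which 2 were. Over all peaks of each list 3.33% have such numbers. The interval was centred on the strongest site, so counting the site raises these shares by construction. Replicate 1 number 351, at 7873240 to 7873735, and number 403 lay to the right of the site. Their nearest centres in replicate 2 were those of numbers 3737 and 7201. Within this distance the median numbers were 9403 in replicate 1 and 13134.5 in replicate 2. Over the whole window they were 14160.5 in replicate 1 and 16483.5 in replicate 2.

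Most members had scores near 0. The scores of nearly all members fit the log10 ratio of peak number to a whole-number background count that rises along the list. They thus follow from place in the list and are not separate evidence on a member. In replicate 1, 144 of the 146 members had scores within 0.1 of 0, the exceptions being numbers 33 and 85. In replicate 2, 150 of 152 did, the exceptions being numbers 9 and 142. Full-list counts of such scores are not given here, so closeness to 0 is not read as particular to the Hox window. Scores above 0 were found for 43 members in replicate 1 (29.5%, against 28.1% of all its peaks) and for 8 in replicate 2 (5.26%, against 5.80%). The other windows had 36 to 53 such peaks in replicate 1 and 5 to 16 in replicate 2. Beside the exceptions named above, these members stood far down the order, 41 of them at number 15125 or beyond in replicate 1 and 6 at number 29299 or beyond in replicate 2, so score and peak number ran opposite ways there. The median score was -0.01 in each replicate.

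The Hox window held 2 long stretches with no peak in either replicate. The first ran from the last base of a peak at 7403389 to the first base of the next at 7453928, with 51.0 kb between the centres, and the second from 7516613 to 7559018, with 42.9 kb between the centres. Across the genome, with both replicates together, the median distance between neighbouring centres was 1034 bp and 99% were below 9641 bp. Only 5 of 59994 distances reached 40 kb, 2 of them in this window, where the gaps ranked 3 and 5 in length. The remaining 3 were 219 kb and 90.8 kb on V and 44.3 kb on X. These gaps were singled out after the values were seen, and no test was made of their number.

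The gaps were the same in each replicate taken alone. In replicate 1 they measured 52.2 kb and 43.3 kb, and in replicate 2 they measured 51.6 kb and 42.9 kb. Each replicate had 10 distances of 40 kb or more in the genome, 2 of them in the Hox window. Their edges differed by 540 bp and 1144 bp for the first gap and by 445 bp and 30 bp for the second. Left of the first gap, within the window, 5 replicate 1 peaks and 4 replicate 2 peaks were crowded between the window's edge and 7403389, among them number 142 of replicate 2. At the right edge of the second gap, number 1728 of replicate 2 at 7559048 to 7559537 overlapped number 16020 of replicate 1. Whether lin-39, the transgene's own gene, lies inside a gap was not analysed here, because gene positions on WS220 were not used. Read depth, mappability and input signal were not among the values used, and their part in the gaps was not tested.

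**Figure D2:**
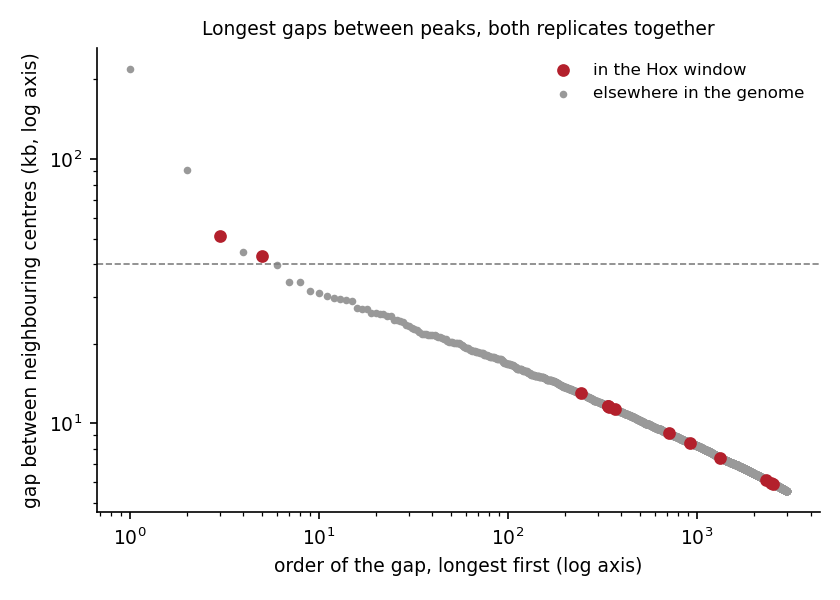
Each point is a distance between the centres of neighbouring peaks, with both replicates together, ordered from the longest (horizontal axis, log) and given in kb (vertical axis, log). Red points lie in the Hox window and grey points elsewhere in the genome, and the dashed line marks 40 kb. The 2 longest red points, at 51.0 and 42.9 kb, are among the 5 of 40 kb or more, and the other distances of the window are 12968 bp or less.

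Peak density was compared with that of the other 7 windows of 550 kb which fit into the central part of chromosome III, 4593756 to 9187512, when tiled from the Hox window. The Hox window had 146 peaks in replicate 1, against 158 to 183 in the other windows (median 171), and so fewer than any of them. It had 152 in replicate 2, against 152 to 193 (median 166), and so shared the lowest count. Per 100 kb this was 26.5 peaks in replicate 1 and 27.6 in replicate 2, where the whole chromosome had 26.8 in replicate 1 and 27.1 in replicate 2. The gaps take up 93.9 kb, or 17.1% of the window. With the gaps taken out of its length, the Hox window had 32.0 peaks per 100 kb in replicate 1 and 33.3 in replicate 2. Taking out empty length raises a density by construction, and the other windows kept their own shorter gaps. Setting these values against theirs, as the last section does, is therefore not a like comparison. The lowest counts lay on the left side of the window. The bins of 50 kb from 7400001, 7450001 and 7500001 held 5, 11 and 3 peaks in replicate 1 and 4, 10 and 7 in replicate 2, while those from 7700001 and 7750001 held 18 and 20 in replicate 1 and 20 each in replicate 2.

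For top-ranked peaks the comparison with the other windows differed between the replicates. Its 10 peaks numbered 1000 or lower in replicate 1 compared with 5 to 11 in the other windows (median 7), and 1 of these windows had more. Its 3 in replicate 2 compared with 2 to 11 (median 7), and 6 of the windows had more. Leaving out either library therefore moves the comparison to opposite sides of the median. The lowest number in the Hox window was 9 in replicate 2, against 45 to 458 in the other windows, and 10 in the series-level list, against 24 to 90 in the 6 windows with such a peak. In replicate 1 it was 33, against 20 to 240, and 2 windows had a lower one. The single series-level peak matched the median of the other windows, which had 0 to 5.

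**Figure D3:**
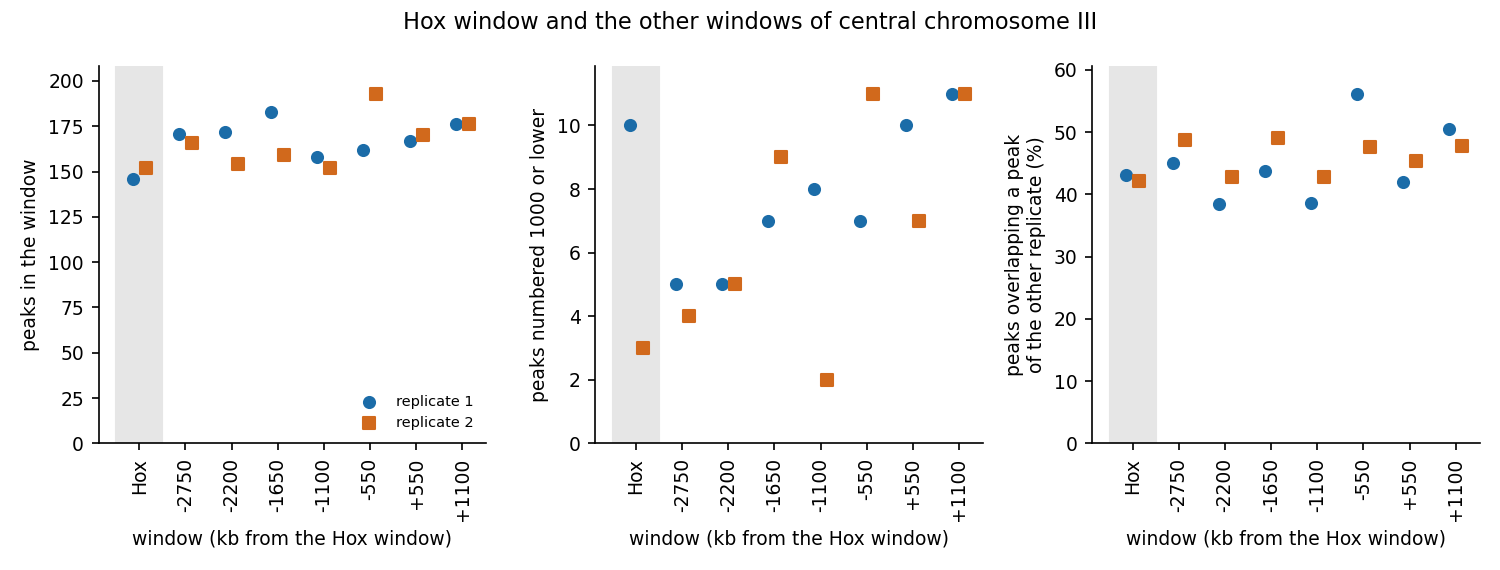
Points give, for replicate 1 (circles) and replicate 2 (squares), the number of peaks, the number of peaks numbered 1000 or lower and the percentage of peaks that overlap a peak of the other replicate, in the Hox window (left, shaded) and the other 7 windows of the central part of chromosome III. The other windows are named by their distance from the Hox window in kb. The Hox window has 146 and 152 peaks in replicates 1 and 2, at the bottom of the range, and its 2 replicates lie farther apart in top-ranked peaks (10 and 3) than in the other panels.

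Agreement between the replicates was close to that of the lists as a whole in replicate 1. There, 63 of 146 members (43.2%, 95% exact interval 35.0 to 51.6) overlapped a replicate 2 peak by at least 1 bp, against 45.3% of all replicate 1 peaks. The other windows had 38.4 to 56.2% (median 43.7), with 3 below the Hox window and 4 above. In replicate 2, 64 of 152 members (42.1%, 34.2 to 50.4) overlapped a replicate 1 peak, against 45.2% of all replicate 2 peaks. The other windows had 42.8 to 49.1% (median 47.7), so the Hox window was the lowest, within its own counting interval. Intervals cover counting error only.

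The share that overlapped was also taken by rank and by position. Of the 10 members numbered 1000 or lower in replicate 1, 8 overlapped a replicate 2 peak, and of the 44 numbered above 20000, 19 did (43.2%, 28.3 to 59.0). Between these, the share was 39.5% at numbers 1001 to 10000 and 38.8% at 10001 to 20000. For all replicate 1 peaks the same 4 ranges gave 66.6, 50.7, 43.8 and 39.9%, listed from low numbers to high. In replicate 2, 2 of the 3 members numbered 1000 or lower overlapped a replicate 1 peak, and the higher ranges gave 53.2% (38.1 to 67.9), 30% (17.9 to 44.6) and 42.3% (28.7 to 56.8). For all replicate 2 peaks the 4 ranges gave 67.1, 51.9, 43.0 and 39.1%, in the same order. The members' intervals overlapped between the ranges within each replicate, and no order by rank was read from them. By position, 31 of the 55 replicate 1 members in the left part of the window, up to 7675000, overlapped a replicate 2 peak (56.4%), against 32 of 91 to the right of it (35.2%). In replicate 2 these shares were 50.0% of 58 and 37.2% of 94. No intervals were computed for this split, which is given as a description. Both gaps lay in the left part and the strongest site in the right part, and no cause of the difference was tested.

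Matched 1 to 1 as overlapping mutual nearest centres, the window gave 57 pairs, of which 30 had centres within 100 bp. The other windows had 57 to 77 pairs. The median distance was 84 bp, with a range of 1 to 454 bp, against 82 bp over all 11683 pairs of the genome. The Spearman correlation of the peak numbers over the 57 pairs was 0.14, against -0.01 to 0.40 in the other windows and 0.11 over all pairs, given as a description since pairs are positions within the same libraries. Only 1 pair was numbered 1000 or lower in both replicates, and 7 were in at least one. After the strongest site, the pair that stood highest by its lower-ranked member lay at the edge of the first gap. It joined number 1068 of replicate 1 at 7402681 to 7403176 and number 3222 of replicate 2 at 7402360 to 7402849. Their centres lay 324 bp apart, and number 3222 overlapped number 142 of replicate 2.

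**Figure D4:**
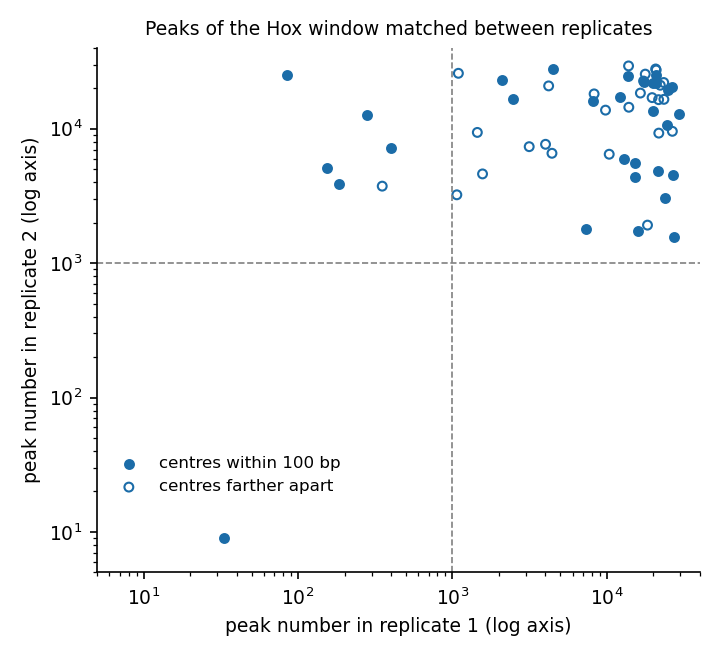
Each point is 1 of the 57 positions of the Hox window matched between the replicates, placed by its peak number in replicate 1 (horizontal axis, log) and in replicate 2 (vertical axis, log). Filled points have centres within 100 bp and dashed lines mark number 1000. The strongest site, at number 33 and number 9, is the only point numbered 1000 or lower in both.

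Runs of overlapping peaks were short in the window. In replicate 1, 36 of the 146 members (24.7%) stood in 18 runs, each of 2 peaks, against 29.7% of all peaks of that list. In replicate 2, 41 of the 152 (27.0%) stood in 20 runs of 2 or 3 peaks, against 28.8%. The longest run in either whole list had 5 peaks. Peak number 85 of replicate 1 was in such a run with number 948, at 7734470 to 7734965, so that 2 of its 10 highest members mark overlapping positions.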

How the data were processed

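The deposited lists are GFF3 tables with 1 peak a line. The source column and, for the build, the file headers give SPP peaks passed through the irreproducible discovery rate (IDR) procedure on WormBase WS220. The sources used here do not give versions, the aligner, thresholds or any pooling behind the series-level list. Positions are 1-based. Peaks of replicate 1 span 496 bp, those of replicate 2 490 bp and the series-level ones 504 bp. The authors deposited a score for each peak that carries no read count, so sequencing depth is unknown. The input libraries have no values here.

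Peaks were ranked by the number in their name. Overlap meant at least 1 bp in common. Windows of 550 kb were tiled from the edges of the Hox window over the central part of III, when the span up to the last peak end of any list, 13781268, is cut into 3 equal parts. Shares have 95% exact Clopper-Pearson intervals. No test was made, since windows and peaks of the same libraries are not replicates. Named were every series-level peak of the window, every replicate peak numbered 100 or lower and every pair numbered 1000 or lower in both. The other peaks named, among them the rest of those numbered 1000 or lower, and the gaps were chosen after their values were seen. Members, lists and comparisons were chosen with earlier results of these data known. The counting functions were tested on simulated data. Python 3.11.15, pandas 2.3.3, numpy 2.4.6, scipy 1.17.1 and matplotlib 3.10.9 were used.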

Additional observations from a re-analysis of the deposited data

How the results depend on the processing

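Of 36 alternatives to 5 results, 29 stayed within the replicate spread, the counting interval or 1.5 times the value reported, and 7 did not. The number of peaks in the Hox window was 0.885 times the median of the other 7 windows (mean of both replicates). It was 0.814 times that of 47 windows in the central parts of the autosomes, and 0.824 times with numbers up to 10000. With the gaps left out of the length of the Hox window only, it was 1.07 times. That alternative was chosen after seeing the data and raises the value by construction. The values of 0.814 and 0.824 lay on the same side of 1 as the value reported. Leaving out a replicate gave 0.854 to 0.916. With all peaks counted, replicate 1 had fewer in the Hox window than any of these 47 central windows. Replicate 2 had fewer than 46 of them and as many as the last. Of 60 sliding windows in the central part of III, 6 had fewer than the Hox window in replicate 2 and 0 in replicate 1. The number of peaks numbered 1000 or lower, summed over replicates, was 0.813 times the median; up to number 100 it was 1.5 times, from 3 peaks, up to number 500 it was 1.13 times, ranked by score 1.09 times, and leaving out a replicate gave 0.429 to 1.43. The fullest bin held 1.48 times the mean bin at 50 kb and 2.22 times at 25 kb, where a smaller bin raises the ratio by construction, and leaving out a replicate gave 1.45 to 1.51. Apart from that, the cause was not tested. The series-level count of 1 kept its value under the 6 alternatives run. The overlap share of replicate 1 members differed from the median of the other windows by -0.565 percentage points as reported and by -3.48 to 5.66 under 7 alternatives, and that of replicate 2 members by -5.56, all within the counting interval of the share. No paired analysis was possible because only ChIP samples have lists. Unknown depth limits every comparison of the replicates.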
